A study of Mus musculus with 4 samples.

Results

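The Slc30 genes encode the ZnT transporters, a family of membrane proteins. Most of them move zinc, and Slc30a10 manganese, out of the cytosol into the extracellular space or into organelles. Members were chosen by symbol, as genes of the count table named Slc30a followed by a number, and by presence in that table, which holds genes with enough reads. Of the 10 family members looked for, 7 were found among the 13289 genes analysed: Slc30a1, Slc30a4, Slc30a5, Slc30a6, Slc30a7, Slc30a9 and Slc30a10. The other 3, Slc30a2, Slc30a3 and Slc30a8, are not analysed here. Slc30a3 loads zinc into synaptic vesicles, Slc30a8 into insulin granules, and Slc30a2 is best known from secretory epithelia.

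The data are RNA-seq read counts of polyadenylated RNA from fresh cerebral cortex of mouse embryos at embryonic day 15. The 2 control libraries are labelled WT, and the 2 Lhx2 cKO libraries carry a conditional knockout of Lhx2, a LIM-homeodomain transcription factor of cortical progenitors. The driver of the knockout, the floxed allele, the strain, and whether a library is 1 embryo or a pool are not given in the labels. P-values therefore measure the spread between these libraries, which may in part be technical.

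Zinc is a structural and catalytic ion in many proteins, and cells keep the free ion low by exporting it, storing it in vesicles and binding it to metallothioneins. Most ZnT proteins carry it away from the cytosol, while the ZIP proteins, encoded by the Slc39 genes, bring it in. The metal-sensing factor Mtf1 raises transcription of metallothioneins and of Slc30a1 when zinc is high. Slc30a10 is the exception in the family for the metal it carries. It exports manganese across the plasma membrane, and people who lack it accumulate manganese in the brain and liver.

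Totals over the analysed genes ran from 22294237 to 24609627 counts per library. CPM is the count scaled to the library size. With the plain totals as size, 3 counts equal 0.122 to 0.135 CPM. The levels given below, in CPM or RPKM, use the total multiplied by the TMM scaling factor of the library, unless library totals are named. These factors ran from 0.973 for Lhx2 cKO 2 to 1.022 for control 2. The least abundant member by reads, Slc30a1, had 2020 reads over the 4 libraries, against a lowest total of 102 for any gene in the table, so counting error is small for every member found. Lhx2 itself was at 316 and 287 CPM in control and at 239 and 247 CPM in Lhx2 cKO, with a log2 fold change of -0.31 (SE 0.098, edgeR adjusted p = 0.0191), so most of its transcript was still counted, and the call was lost in 3 of the 4 fits that left out 1 library, the exception being the fit without control 2. Cortical markers were present: the summed level of 6 neuron markers was 3786 to 3961 CPM in control and 3941 to 4176 CPM in Lhx2 cKO, and that of 6 radial glia markers 556 to 602 and 528 to 547 CPM. Of the 4 choroid plexus markers only Aqp1 was analysed, at 1.28 to 1.52 CPM.

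Within the family, Slc30a10 was far lower in the Lhx2 cKO cortex, Slc30a4 was moderately higher, and the other 5 members were not called. A gene is called when its adjusted p, over all 13288 genes tested in edgeR's quasi-likelihood fit, is under 0.05. This gave 2 called of 7 members, 1 lower and 1 higher, against 20.8% of all tested genes called, 9.17% lower and 11.6% higher. The median log2 fold change was 0.09 over the members and 0.003 over all genes tested. The family was put forward with this contrast already known, so the fold changes and adjusted p-values describe these 4 libraries and are no independent evidence about the family.

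The promoters of the 2 called members are shown first, from 250 bases before the RefSeq start to the first transcribed base, 5′ to 3′ on the strand of the gene (GRCm38.p6). Capitals mark matches to the core of the metal response element, the site that Mtf1 binds, spelled TGCACNC or TGCGCNC and searched on both strands. The Slc30a10 promoter lies at chr1:185454598-185454848 on the plus strand, and that of Slc30a4 at chr2:122702663-122702913 on the minus strand.
Slc30a10: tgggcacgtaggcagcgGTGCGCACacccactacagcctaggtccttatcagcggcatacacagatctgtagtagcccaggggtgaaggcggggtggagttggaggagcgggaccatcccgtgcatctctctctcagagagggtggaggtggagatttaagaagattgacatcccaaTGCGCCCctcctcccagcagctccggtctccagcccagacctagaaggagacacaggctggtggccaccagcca
Slc30a4: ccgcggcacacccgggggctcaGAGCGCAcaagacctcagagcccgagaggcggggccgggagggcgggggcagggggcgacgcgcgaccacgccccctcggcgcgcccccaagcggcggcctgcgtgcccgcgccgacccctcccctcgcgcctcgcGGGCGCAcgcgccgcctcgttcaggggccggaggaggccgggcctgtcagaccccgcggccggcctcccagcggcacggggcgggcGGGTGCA

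Counted from the start, with no position 0, the Slc30a10 promoter held the core at -233 to -226, where matches on both strands overlap, and again at -73 to -67. The Slc30a4 promoter held it at -228 to -222, at -92 to -86 and at -6 to 1. In the 300 bases that end 50 bases after the start, the core was found in 4 of the 7 members: Slc30a1, Slc30a4, Slc30a5 and Slc30a10. It was found in 25.7% of the 32841 promoters of that length. The called members, which moved in opposite directions, therefore both held these letters, and so did 2 members that were not called. The letters TAATTA, a core of many homeodomain sites and searched for after the values were seen, were in 0 of the 7 member promoters and in 5.29% of all promoters. The promoter of Slc30a4 was 81.7% G and C and that of Slc30a10 62.7%, against 55.7% to 73% in the other members.

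Slc30a10 (ENSMUSG00000026614.8), the manganese exporter of the plasma membrane, had 3109 and 3583 reads in control and 947 and 939 reads in Lhx2 cKO. Scaled, this was 128 and 143 CPM in control and 41.6 and 40.9 CPM in Lhx2 cKO. Both Lhx2 cKO libraries lay far below both controls. They differed from each other by 1.83%, less than counting error at these read numbers, while the controls differed by 11.8%. The means were 136 ± 10.7 CPM in control and 41.2 ± 0.528 CPM in Lhx2 cKO (SD, n = 2), leaving 30.4% of the control level. The log2 fold change was -1.72 (SE 0.101), a 3.29-fold lower level, with an edgeR adjusted p of 6.02e-17. By p it ranked 6 among the 1218 genes called lower, and by size of the fall it ranked 32. The value was between -1.73 and -1.71 in the 8 alternative fits with all libraries and between -1.81 and -1.64 when any 1 library was left out, and it was called in all 12. The authors' deposited table gives -1.73 for this gene. An antisense noncoding gene, Gm2061, overlaps it in GENCODE M21, and the counting is not stated to use strand, so reads of the pair cannot be told apart.

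**Figure D1:**
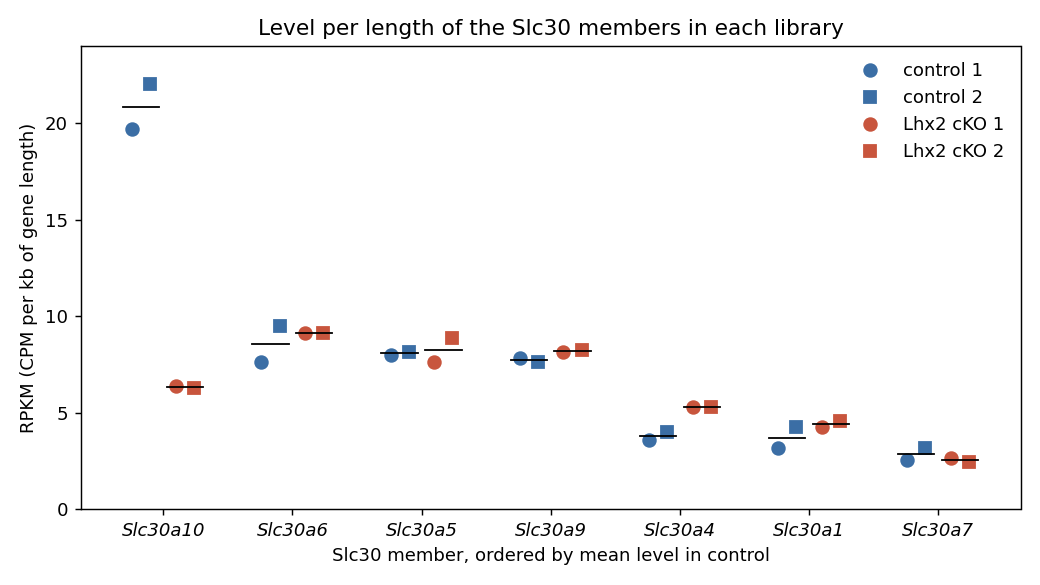
Level of each Slc30 member per length, in RPKM on the vertical axis, for the 7 members in order of their mean level in control. Points are single libraries (blue control, red Lhx2 cKO; circles replicate 1, squares replicate 2) and black lines are group means. Slc30a10 drops from 19.7 and 22.0 RPKM in control to 6.40 and 6.28 RPKM in Lhx2 cKO, while each other member stays within 2.45 to 9.47 RPKM.

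Per length of gene, Slc30a10 was the most abundant member of the family in control cortex. Levels are compared between genes as RPKM, the CPM per 1000 bases of the deposited gene length. That length ran from 3075 bases for Slc30a6 to 12374 bases for Slc30a9, and the order depends on it. By CPM, Slc30a10 also led in control, at a mean of 136 against 95.7 for Slc30a9. In Lhx2 cKO, however, Slc30a9 led by CPM at 101.6, with Slc30a6 at 28.1. In control, Slc30a10 stood at 20.9 ± 1.64 RPKM (SD, n = 2), followed by Slc30a6 at 8.54 ± 1.32, Slc30a5 at 8.08 ± 0.126 and Slc30a9 at 7.73 ± 0.114 RPKM. Slc30a4 at 3.80 ± 0.312, Slc30a1 at 3.71 ± 0.737 and Slc30a7 at 2.85 ± 0.448 RPKM were the lowest. The control libraries of Slc30a6 overlapped those of both Slc30a5 and Slc30a9, and those of Slc30a4 overlapped those of Slc30a1, so the order within these pairs is not set by these data. In Lhx2 cKO the order changed at the top. Slc30a6 had the highest mean, at 9.13 ± 0.0184 RPKM. Slc30a5 and Slc30a9 followed with overlapping libraries at 8.26 ± 0.881 and 8.21 ± 0.0842 RPKM, and Slc30a10 came next at 6.34 ± 0.0811 RPKM. The nearest Lhx2 cKO libraries of Slc30a6 and Slc30a5, at 9.12 and 8.89 RPKM, differed by less than counting error. The order of Slc30a6 and Slc30a5 is therefore not set by these data. The 2 libraries of Slc30a10 lay above both libraries of Slc30a9 in control, at 2.52 and 2.88 times its level, and below both in Lhx2 cKO, at 0.784 and 0.759 times.

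The summed level of the 7 members was 52.4 and 58.7 RPKM in control and 43.5 and 44.9 RPKM in Lhx2 cKO, so the groups did not overlap. Slc30a10 made up 37.6% and 37.5% of that sum in control and 14.7% and 13.99% in Lhx2 cKO. Without it the sum was 32.7 and 36.7 RPKM in control and 37.1 and 38.6 RPKM in Lhx2 cKO. The lower total in Lhx2 cKO was thus made by Slc30a10, and the other members together were slightly higher. RNA of whole cortex cannot tell fewer cells of a type from less RNA per cell.

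**Figure D2:**
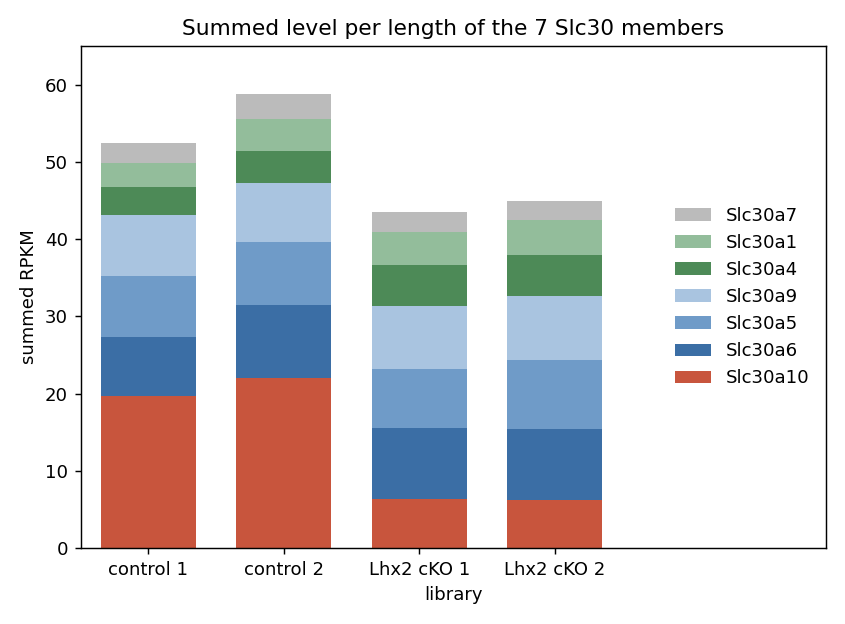
Summed RPKM of the 7 Slc30 members in each library, stacked by member. The segment of Slc30a10 at the base takes 37.6% and 37.5% of the bar in control and 14.7% and 13.99% in Lhx2 cKO, and the rest of the bar is 32.7 to 38.6 RPKM in all 4 libraries.

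Slc30a4 (ENSMUSG00000005802.13) encodes a zinc transporter of endosomes and secretory vesicles, whose loss in the lethal milk mouse leaves milk poor in zinc. It had 476 and 551 reads in control and 661 and 668 reads in Lhx2 cKO, or 19.6 and 22.1 CPM against 29.1 and 29.1 CPM. Both Lhx2 cKO libraries lay above both controls. They differed from each other by 0.0928%, less than counting error at these read numbers, so their closeness does not measure the spread of replicates. The means were 20.8 ± 1.71 CPM in control and 29.1 ± 0.0191 CPM in Lhx2 cKO (SD, n = 2). On the log2 scale the gene rose by 0.48 (SE 0.122, edgeR adjusted p = 0.00338). Without control 1 the log2 fold change was 0.39 and the call was lost (adjusted p = 0.0824). With the other alternatives, 11 of 12, it was called. The authors' deposited values for Slc30a4 are 0.47 and an edgeR adjusted p of 0.00342. They mark Slc30a4 as NS, and Lhx2 too (edgeR adjusted p = 0.0117), while Slc30a10 is marked as down. Both NS genes have an adjusted p under 0.05 there, so that mark does not follow from this threshold alone. A noncoding gene, 4930417H01Rik, overlaps Slc30a4 on the opposite strand.

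Slc30a1 (ENSMUSG00000037434.8), the zinc exporter of the plasma membrane and a target of Mtf1, had 16.7 and 22.2 CPM in control and 22.4 and 23.9 CPM in Lhx2 cKO. The groups did not overlap, but the 2 controls differed by 32.6%, the widest gap between libraries of a group in the family. The log2 fold change was 0.25 (SE 0.136, edgeR adjusted p = 0.203), and Slc30a1 was not called. Its value rests on which control is used: 0.05 without control 1, and 0.47 with a call (adjusted p = 0.0391) without control 2. Fits without 1 library have 1 residual degree of freedom and lean on a spread shared by all genes, so their p-values can be too small, and a call gained or kept there is weak evidence. The antisense gene 1700034H15Rik overlaps it on the other strand.

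The early secretory pathway is served by Slc30a5 and Slc30a6, whose proteins pair to form a zinc transporter, and by Slc30a7, which works in the Golgi. The processed pseudogenes Gm43106 and Gm6649 overlap Slc30a7 on the opposite strand. Slc30a5 was at 58.3 and 59.6 CPM in control and 55.7 and 64.8 CPM in Lhx2 cKO, so the controls lay between the Lhx2 cKO libraries. Slc30a6 was at 23.4 and 29.1 CPM in control and 28.0 and 28.1 CPM in Lhx2 cKO, again overlapping. Slc30a7 was at 28.2 and 35.2 CPM in control and 29.3 and 27.3 CPM in Lhx2 cKO. Their log2 fold changes were 0.03 (SE 0.102) for Slc30a5, 0.10 (SE 0.122) for Slc30a6 and -0.16 (SE 0.119) for Slc30a7, with edgeR adjusted p of 0.862, 0.636 and 0.359. Per length, the level of Slc30a5 was 1.05 and 0.862 times that of its partner Slc30a6 in control and 0.838 and 0.972 times in Lhx2 cKO, so the ratio overlapped between the groups. The sign of each of the 3 depended on 1 library: Slc30a5 was at -0.08 without Lhx2 cKO 2, Slc30a6 at -0.07 without control 1, and Slc30a7 at 0.01 without control 2.

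Slc30a9 (ENSMUSG00000029221.16), which exports zinc from mitochondria and was also described as a nuclear receptor coactivator, was the steadiest member. It had 96.7 and 94.7 CPM in control and 100.9 and 102.4 CPM in Lhx2 cKO. The libraries of a group differed by at most 2.12%, which is within counting error, and the groups did not overlap, with Lhx2 cKO higher. The log2 fold change was 0.09 (SE 0.0948, edgeR adjusted p = 0.572), and it stayed between 0.07 and 0.10 in all 12 alternatives, none of which called it. Over the family, 4 of 7 members (57.1%) did not overlap between the groups, 3 of them higher and 1 lower, against 59.3% of all tested genes.

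**Figure D3:**
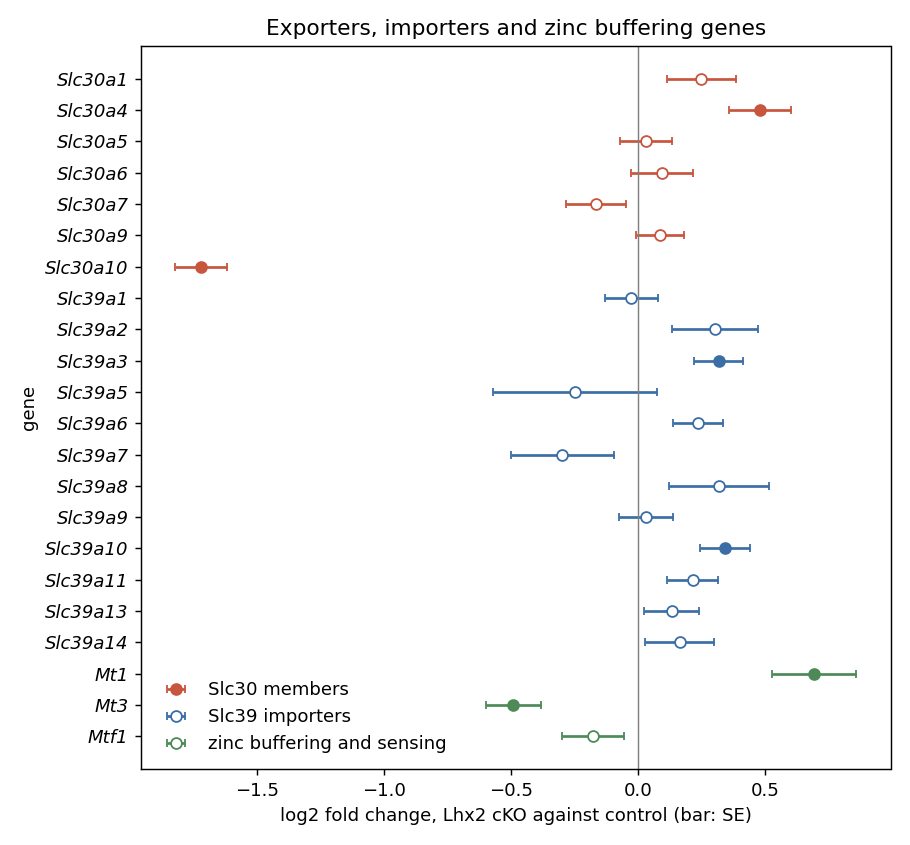
Log2 fold change between Lhx2 cKO and control for the Slc30 members (red), the Slc39 importers (blue) and the zinc buffering and sensing genes (green); bars are standard errors, filled points are called genes and open points are not. Slc30a10 stands at -1.72, and all other genes shown lie between -0.49 and 0.69.

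The importers that oppose the Slc30 proteins are encoded by the Slc39 genes. Of the 14 in the list, 12 were tested, and 2 (16.7%) were called higher and 0 lower, against 20.8% of all tested genes called. Their median log2 fold change was 0.19, against 0.003 over all genes, and they ranged from -0.30 to 0.34. Slc39a10, an importer of the plasma membrane, was at 74.7 and 78.7 CPM in control and 92.3 and 102.1 CPM in Lhx2 cKO (log2 fold change 0.34, SE 0.0975, edgeR adjusted p = 0.00896). Its call was lost without control 1 (adjusted p = 0.0928) and without Lhx2 cKO 2 (0.158). Slc39a3 was at 157 and 156 CPM in control and 182 and 209 CPM in Lhx2 cKO (0.32, SE 0.0965, adjusted p = 0.0145). Its call was lost without control 1 (0.0684), without control 2 (0.0544) and without Lhx2 cKO 2 (0.277). In both genes the 2 Lhx2 cKO libraries lay above both controls. The log2 fold changes of the other 10 importers ran from -0.30 for Slc39a7 to 0.32 for Slc39a8, and none of these passed the test.

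The zinc buffering genes moved in different directions. Mt1, a metallothionein that binds zinc and copper in most cells, was at 9.07 and 7.96 CPM in control and 13.8 and 13.7 CPM in Lhx2 cKO, a rise of 0.69 on the log2 scale (SE 0.167, edgeR adjusted p = 0.00187). Mt3, the metallothionein of brain, was at 40.2 and 40.6 CPM in control and at 28.6 and 29.0 CPM in Lhx2 cKO, and fell by 0.49 on the log2 scale (SE 0.108, edgeR adjusted p = 7.60e-04). In both genes the groups were well apart, and both were called in all 12 alternatives. Mtf1 was at 24.6 and 26.9 CPM in control and 21.7 and 23.9 CPM in Lhx2 cKO (-0.18, SE 0.123, adjusted p = 0.342) and was not called; it shares exonic bases with 1110065P20Rik on the opposite strand. Of the 4 listed genes, 3 were tested, and Mt2 is not analysed here. The calls, 1 higher and 1 lower, were 66.7% of those tested, against 20.8% of all tested genes.

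Of Slc30a10 and the 7 other manganese transporters listed, Slc30a10 was the only gene called lower. The 7 others, all tested, had 1 called higher and 0 lower, with a median log2 fold change of 0.07. That is 14.3% called, against 20.8% of all tested genes, of which 9.17% were called lower. The gene called was Slc40a1, ferroportin, which exports iron and can carry manganese, at 8.21 and 10.7 CPM in control and 16.1 and 17.5 CPM in Lhx2 cKO (0.83, SE 0.162, edgeR adjusted p = 1.58e-04). The manganese importers of the Slc39 family were not called. Slc39a8 was at 6.23 and 8.12 CPM in control and 8.09 and 9.84 CPM in Lhx2 cKO. Slc39a14 was at 17.3 and 17.1 CPM in control and 18.7 and 19.9 CPM in Lhx2 cKO. The Golgi pump Atp2c1, at 82.2 and 93.9 CPM in control and 86.3 and 83.8 CPM in Lhx2 cKO, and Tmem165, at 55.5 and 57.4 against 54.1 and 64.8 CPM, overlapped between the groups.

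The remaining lists stand against 20.8% of all tested genes called. Of 9 tested partners of synaptic zinc, the vesicular glutamate transporters and the AP-3 adaptor that sorts Slc30a3 to vesicles, 1 (11.1%) was called higher and 0 lower (median -0.12). It was the adaptor subunit Ap3b1, at 0.29 (SE 0.104, edgeR adjusted p = 0.0393), whose call was lost with library totals, in DESeq2 and in each fit without 1 library (adjusted p from 0.0757 to 0.147). Of 3 tested zinc ectoenzymes, which take up zinc in the secretory pathway, Enpp2 was called higher at 0.66 (SE 0.189, adjusted p = 0.00925), with 0 lower and a median of 0.66, so 33.3% of that list was called. Enpp2 was at 0.38 without control 1, where its call was lost, and at 1.001 without control 2. A noncoding gene, Gm26684, overlaps Enpp2 on the opposite strand. Of 7 copper and iron transporters, all tested, Slc31a2 was called higher at 0.75 (SE 0.193, adjusted p = 0.00397), with 0 lower, 14.3% of the list called and a median of 0.09. Slc31a2 was at 0.49 without control 1 and at 1.05 without control 2, and its call was lost without control 1 (0.145) and without Lhx2 cKO 2 (0.0618).

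Several cell type markers moved with the groups. Over all tested genes, 20.8% were called, 9.17% lower and 11.6% higher. The summed level of 3 intermediate progenitor markers, Eomes, Neurog2 and Btg2, was 379 to 381 CPM in control and 193 to 196 CPM in Lhx2 cKO. Of the 3, 2 were called lower, and much of the fall in the sum was that of Eomes. Eomes alone was at 214 and 216 CPM in control and 68.8 and 67.7 CPM in Lhx2 cKO. The 5 red blood cell markers were at 2308 to 3132 and 1857 to 2074 CPM, all 5 called lower. In the other direction, 7 microglia markers were at 112 to 113 and 223 to 249 CPM with 6 called higher, 8 endothelial and pericyte markers at 242 to 277 and 306 to 344 CPM with 5 higher and 1 lower, 3 Cajal-Retzius markers at 284 to 313 and 427 to 549 CPM with 3 higher, 3 oligodendrocyte precursor markers at 17.6 to 18.7 and 35.1 to 43.1 CPM with 3 higher, and 3 astrocyte markers at 6.31 to 6.92 and 31.8 to 35.3 CPM with 3 higher. Deep-layer neuron markers, 4 genes at 779 to 819 and 732 to 758 CPM, had 0 calls. Other lists were mixed or little changed. Of 6 radial glia markers 2 were called lower and 1 higher, and of 6 neuron markers 2 lower and 1 higher. Of 4 interneuron markers 1 was called higher and 0 lower. The part of these cell types in the changes of Slc30a10, Slc30a4, Mt1, Mt3 and Slc40a1 was not tested.

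The genes whose profile over the 4 libraries was nearest to that of Slc30a10 were Eomes, Palmd and Fzd8. Likeness was the Euclidean distance of log2 CPM centred on the mean of the 4 libraries, among 11680 genes that averaged 2 CPM or more, and 4 genes lay within 0.2. Eomes, the T-box factor that marks intermediate progenitors, was at a distance of 0.123, with 214 and 216 CPM in control and 68.8 and 67.7 CPM in Lhx2 cKO. Palmd, a palmdelphin gene, was at 0.155, with 46.7 and 45.4 CPM in control and 13.5 and 13.3 CPM in Lhx2 cKO. Fzd8, a Wnt receptor, was at 0.179, with 74.1 and 84.0 CPM in control and 20.8 and 22.8 CPM in Lhx2 cKO. With 4 libraries in 2 groups, such a distance mostly reads the size of the group difference, and it is a description of these libraries.

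**Figure D4:**
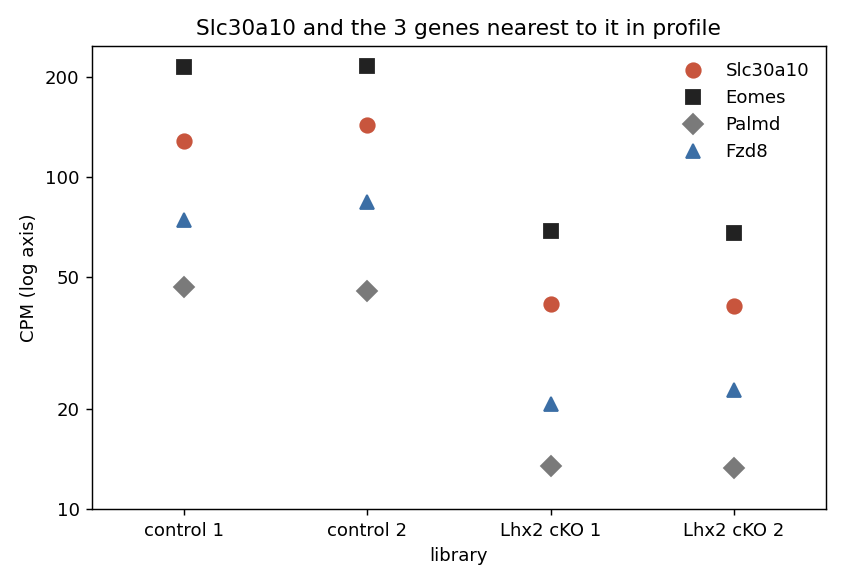
CPM on a log axis of Slc30a10 and the 3 genes nearest to it in profile, in each of the 4 libraries. All 4 genes are lower in both Lhx2 cKO libraries, Slc30a10 at 41.6 and 40.9 CPM against 128 and 143 CPM in control and Eomes at 68.8 and 67.7 CPM against 214 and 216 CPM.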

How the data were processed

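RNA-seq libraries of E15 cortex, 2 control and 2 Lhx2 cKO, were grouped by their titles. The deposited table holds raw read counts per gene, a gene length, and the authors' log2 fold change, p-value, adjusted p-value and its -log10; per the submitters' processing notes it was made with Trim Galore, Subread, featureCounts and edgeR on mm39, while settings, annotation and use of strand are not given in the sources used here. Genes with few reads are absent from the table (lowest total 102 counts), so CPM here are over the analysed genes. All else was computed from the counts: edgeR 4.0.16 in R 4.3.3 with TMM, filterByExpr (which removed 1 gene), glmQLFit and glmQLFTest over 13288 genes, two-sided, with Benjamini-Hochberg adjustment; SE is the absolute log2 fold change over the root of F. The common biological coefficient of variation was 8.27%. Intervals of depth cover counting error only. Counts of the libraries within a group differed by more than sampling noise (13.9 and 14.3 times the chi-square that counting alone gives) and the libraries were kept as separate replicates. The fit was tested on simulated data. Alternatives were RLE, upper-quartile and no scaling factors, no filter, a minimum mean count of 50, the replicate block, DESeq2 1.42.0, limma-voom (limma 3.58.1) and leaving out each library; in the latter fits edgeR estimated an unlimited prior degree of freedom, against 38.7 with all libraries, so their p-values can be too small.

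The members, the lists and the rule for naming genes were chosen with earlier results of these data known. The rule named every member, up to 4 called genes of each list in order of p, the metallothioneins and Mtf1. It also named the 3 genes nearest to the most changed member (log2 CPM with a prior count of 2, without provisional names and sex-linked genes). Slc39a7, Slc39a8, Slc39a14, Atp2c1 and Tmem165, none of them called, are given outside this rule. Promoters of all 7 members were found in the RefSeq table of GRCm38.p6; no coordinates of the mm39 files were used. Protein sequences were not used here.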

Additional observations from a re-analysis of the deposited data

How the results depend on the processing

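With all libraries, 2 members were called under each of the 8 alternatives of scaling, filter, block and test, and the counts over the other metal genes (7 to 10, against 8) and over all genes (2170 in DESeq2 to 2879 with upper-quartile factors, against 2758) stayed within 1.5 times. The scaling alternatives moved the median of all genes by between -0.0104 and 0.0022 on the log2 scale, and library totals gave a median level of 7.76 RPKM over the members in control, against 7.73 RPKM with TMM. The replicate numbers pair nothing visible: the correlation of the deviations was 0.001, and with the replicate block 2 members, 9 other metal genes and 2874 genes in all were called, with no call of a named gene changed. Leaving out 1 library, which assumes that the lone library of its group varies like the others, gave 1 to 3 called members, 3 to 11 other metal genes and 1633 to 2396 genes in all; the lowest were 1 member and 3 metal genes without control 1 and 1633 genes without Lhx2 cKO 2, and without control 1 the count was 1790. Signs reversed for 3 uncalled members: Slc30a6 at -0.065 without control 1 (up to 0.264 without control 2), Slc30a7 at 0.006 without control 2 (down to -0.328 without control 1) and Slc30a5 at -0.084 without Lhx2 cKO 2 (up to 0.137 without Lhx2 cKO 1). Depth does not limit the members found, but with 2 libraries a group the spread between libraries does.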
